A study of Homo sapiens with 9 samples.

Results

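The genes described here are 10 genes of retinoid metabolism and retinoid signalling, out of 57820 genes in the expression tables. They are ALDH1A1, ALDH1A2 and ALDH1A3, which oxidise retinal, then DHRS3, DHRS9, RDH10 and RDH11, which interconvert retinol and retinal, and the nuclear receptors RARA, RARG and RXRA. They were picked by gene symbol, and the choice used measured values, because ALDH1A3 had been seen to be lower in both RBM5 groups and DHRS3 to lie on opposite sides of the control. The values of ALDH1A3 and DHRS3 are therefore given as a description, without a test, and counts over the members are not evidence about the pathway.

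RNA-seq was performed in MOLM13, an established human acute myeloid leukemia line that carries a KMT2A fusion and an internal tandem duplication of FLT3. The CTRL group received a non-targeting sgRNA (sgNT), the RBM5 KO group an sgRNA against coding exons of RBM5 (RBM5-sg1), and the RBM5 OE group a lentiviral RBM5 cDNA joined to Venus by P2A, with 3 replicates each. RBM5 is an RNA-binding splicing factor, and the study asked what its loss and its gain do to leukemia cells. All groups were grown in RPMI-1640 with fetal bovine serum, no drug treatment was compared, and the labels give genotype wt for CTRL. In the paper's methods, sgRNAs were delivered to lines made to express Cas9 under blasticidin selection. Cells that received an sgRNA were then selected with puromycin. Isolation of single clones is not described for the sgRNA-targeted cells. A control that carried an empty cDNA vector is not among these libraries, so the RBM5 cDNA and the vector that carried it cannot be told apart in RBM5 OE. The labels also do not say whether RBM5 OE cells carried an sgRNA or Cas9. Any effect of sgNT, Cas9 or drug selection in CTRL therefore cannot be separated from that of the cDNA. Libraries held 25522952 to 27871988 expected counts each.

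Retinol that enters a cell is oxidised reversibly to retinal by short-chain dehydrogenases, of which RDH10 is the best known, while DHRS3 works in the reverse direction and returns retinal to retinol. Retinaldehyde dehydrogenases of the ALDH1A family then oxidise retinal irreversibly to all-trans retinoic acid. Retinoic acid binds retinoic acid receptors, which sit on DNA as dimers with retinoid X receptors, and in myeloid leukemia this pathway is known for the differentiation that retinoic acid induces in cells with a PML-RARA fusion.

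RBM5 itself, on chromosome 3 at 50126352 to 50156454 of GRCh37, was measured first as a check of the labels. Its normalised read count, given as CPM (read counts scaled to library size, here after TMM scaling), was 122, 117 and 113 in the CTRL libraries, 70.5, 73.9 and 79.4 in RBM5 KO, and 380, 414 and 416 in RBM5 OE. The groups did not overlap, and RBM5 differed from CTRL by a log2 fold change of -0.65 (SE 0.0835, adjusted p = 0.00692, edgeR quasi-likelihood test, n = 3 against 3) in RBM5 KO and of 1.78 (SE 0.0678, adjusted p = 4.11e-08) in RBM5 OE. Transcripts of an edited gene are still counted, so the remaining RBM5 reads in RBM5 KO do not measure the protein. In RBM5 KO, the call was lost without CTRL replicate 1 (adjusted p = 0.0606, edgeR).

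Of 11 markers of myeloid blasts and monocytes, among them CD33, FLT3, MPO and LYZ, none was at 0 in any group. EPCAM and HBB, markers of epithelial and red cells, were at 0 in every library, and the 8 markers of other cell types measured summed to 2.38 to 5.97 CPM. The myeloid markers summed to 2198 to 2323 CPM in CTRL, 2907 to 3305 CPM in RBM5 KO and 1522 to 1580 CPM in RBM5 OE. LYZ, a granule enzyme of the myeloid lineage, was the largest part of this sum by group mean in each group. It averaged 1309 CPM in CTRL, 2216 CPM in RBM5 KO and 535 CPM in RBM5 OE, the order of the sum. FLT3, the next largest, had the opposite order, at 485, 321 and 504 CPM. Against CTRL, log2 fold changes were positive for 9 and negative for 2 markers in RBM5 KO, and positive for 5 and negative for 6 in RBM5 OE. The sum thus does not describe the list as a whole. In RBM5 KO, 2 of the 11 markers were higher (LYZ and MNDA) and 1 was lower (FLT3), beside 0.837% and 1.67% of all genes. In RBM5 OE, PTPRC, CD14 and ITGAM were higher and CD33, LYZ, FCGR1A and MNDA were lower. In that comparison 19.8% of all genes were higher and 20.2% lower. The part of the markers in the results below was not tested. In bulk RNA, fewer cells of a type and less RNA per cell cannot be told apart.

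Among the libraries, CTRL replicate 3 and RBM5 KO replicate 1 stood apart from the other libraries of their groups. Their deviations from the group means correlated across genes (Pearson r = 0.355, with genes that are not independent of each other). For ALDH1A2, ALDH1A3 and DHRS3, each of them held the highest value of its group, and for RARA and RARG the lowest. Values without both libraries are given beside the results they touch.

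Per transcript length, in TPM (transcript abundance scaled by length and by library), DHRS9 was the most abundant of the 10 genes in CTRL, with a mean level of 106 ± 11.6 (SD, n = 3). It was followed by RARA (37.7 ± 1.60), RDH11 (29.7 ± 1.17), RXRA (25.3 ± 1.96) and RDH10 (17.9 ± 2.42), all in TPM. ALDH1A3 came next, at 14.0 ± 2.40 TPM, and its CTRL range overlapped with that of RDH10. DHRS3 (6.13 ± 3.07 TPM) and RARG (6.08 ± 0.699 TPM) overlapped with each other. ALDH1A2 averaged 0.347 TPM and ALDH1A1 was listed at 0. In RBM5 OE the order was different, in that DHRS3 stood in the fourth place at 37.7 ± 1.56 TPM and overlapped with RDH11 (40.1 ± 1.84 TPM), and DHRS9 (57.7 ± 1.15 TPM) overlapped with RARA (53.6 ± 3.15 TPM). In RBM5 KO, DHRS3 (1.63 ± 0.719 TPM) and ALDH1A3 (2.89 ± 0.691 TPM) had the lowest group means of the 8 genes with more than a few counts. Their ranges overlapped, and that of ALDH1A3 (2.28 to 3.64 TPM) also overlapped with RARG (3.25 to 6.11 TPM).

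**Figure D1:**
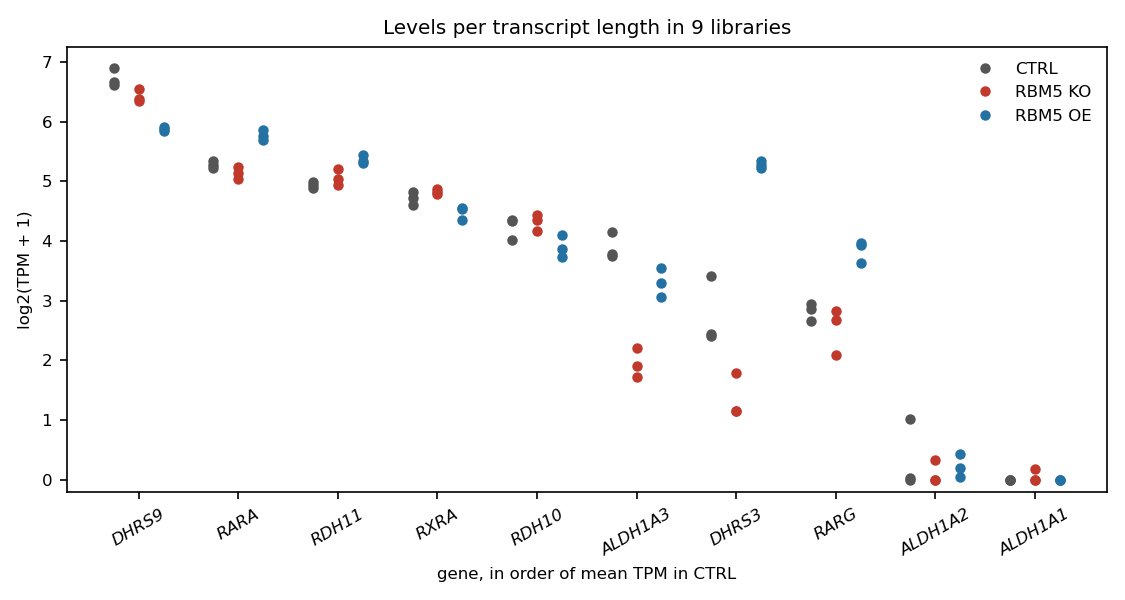
Levels of the 10 genes as log2(TPM + 1) on the y axis, 1 point per library, with genes on the x axis in order of their mean TPM in CTRL and grey, red and blue points for CTRL, RBM5 KO and RBM5 OE. DHRS3 in RBM5 OE (36.2 to 39.3 TPM) lies far above its CTRL libraries (4.32 to 9.68 TPM), and ALDH1A1 and ALDH1A2 lie near 0 in all groups.

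Among the ALDH1A genes, ALDH1A3 was the one that these cells mainly expressed. It made up 93.3% to 100% of the summed TPM of the ALDH1A genes in each library. Other genes of retinal oxidation were not part of this sum. ALDH1A1 had 0 counts in 8 libraries and 6 counts in RBM5 KO replicate 3. ALDH1A2 had 1, 0 and 6 counts in the CTRL libraries, 2, 0 and 0 in RBM5 KO, and 1 in each RBM5 OE library. A count of 0 allows up to 3 counts, or 0.108 to 0.118 CPM at the depth of these libraries, counting error only. Both genes failed the filter on low counts, so 8 of the 10 members entered the tests, and no fold is given for the other two.

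The ALDH1A3 gene lies on the plus strand of chromosome 15 at 101417919 to 101456831 (GRCh37). Its normalised count was 38.4, 31.1 and 47.3 CPM in CTRL, 8.96, 6.63 and 7.84 CPM in RBM5 KO, and 20.1, 21.5 and 21.3 CPM in RBM5 OE. The 3 groups did not overlap: every RBM5 KO library was below every RBM5 OE library, and these were below all CTRL libraries. Relative to CTRL, ALDH1A3 was 4.99-fold lower in RBM5 KO (log2 fold change -2.32, SE 0.176) and 1.86-fold lower in RBM5 OE (log2 fold change -0.89, SE 0.130). The level in RBM5 OE was 2.68-fold above that in RBM5 KO (log2 fold change 1.42, SE 0.155). Without CTRL replicate 3 and RBM5 KO replicate 1, the log2 fold changes against CTRL were -2.26 and -0.73. Both comparisons share the CTRL libraries.

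Libraries were counted without strand, and ALDH1A3 is overlapped by the antisense gene ALDH1A3-AS1, so strand cannot assign reads from sequence that both genes share. How much exon sequence they share was not measured. ALDH1A3-AS1 was assigned 5.67 to 6.44 CPM in the CTRL libraries, 2.94 to 4.17 CPM in RBM5 KO and 4.13 to 5.54 CPM in RBM5 OE. It had the same order of group means as ALDH1A3, at a lower level, with an adjusted p against CTRL of 0.0991 for RBM5 KO and 0.133 for RBM5 OE (edgeR).

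DHRS3 encodes a retinal reductase that is itself known as a target of retinoic acid, and lies on the minus strand of chromosome 1 at 12627939 to 12678216 (GRCh37). Its normalised count was 5.26, 6.01 and 12.0 CPM in CTRL, 3.18, 1.47 and 1.51 CPM in RBM5 KO, and 44.7, 46.6 and 46.2 CPM in RBM5 OE. The RBM5 OE libraries were close to each other and stood above all others, and the RBM5 KO libraries were all below CTRL, while CTRL replicate 3 was well above the other CTRL libraries. DHRS3 was 3.77-fold lower in RBM5 KO (log2 fold change -1.91, SE 0.393) and 5.90-fold higher in RBM5 OE (log2 fold change 2.56, SE 0.223) than in CTRL. Between RBM5 OE and RBM5 KO the fold was 22.2 (log2 fold change 4.48, SE 0.330). Of the 8 tested members, DHRS3 had the largest SE in each comparison. Without CTRL replicate 3 and RBM5 KO replicate 1, the log2 fold change was -1.91 in RBM5 KO and 3.02 in RBM5 OE.

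The region around the annotated transcript start is shown for these 2 genes, whose values the choice of members used, because retinoic acid receptors bind DNA through short half-sites. Windows of 250 bases before to 50 after a start were taken from RefSeq (GRCh38.p14, a different build from the gene coordinates above) and are given 5′ to 3′ on the strand of the gene. The half-site AGGTCA was searched on both strands and occurred in 13.8% of the windows of all genes. The related letters AGTTCA were present in 10.4% of windows, whereas GGTTCA was present in 8.62% and the form GGGTCA in 14.1%. Matches are in capitals, where TGACCT stands for the first of these on the other strand. ALDH1A3 has 1 window, at chr15:100879581-100879880 (81.7% GC), without a match. DHRS3 has 3 windows, of which the most upstream, chr1:12618161-12618460, has no match and the other two, chr1:12616740-12617039 and chr1:12596564-12596863, have 1 each.
ALDH1A3: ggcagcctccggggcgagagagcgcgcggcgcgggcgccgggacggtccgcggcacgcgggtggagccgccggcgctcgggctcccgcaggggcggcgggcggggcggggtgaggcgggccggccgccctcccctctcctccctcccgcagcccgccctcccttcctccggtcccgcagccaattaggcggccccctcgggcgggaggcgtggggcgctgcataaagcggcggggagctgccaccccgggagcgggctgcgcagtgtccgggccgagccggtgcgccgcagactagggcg
DHRS3, middle start: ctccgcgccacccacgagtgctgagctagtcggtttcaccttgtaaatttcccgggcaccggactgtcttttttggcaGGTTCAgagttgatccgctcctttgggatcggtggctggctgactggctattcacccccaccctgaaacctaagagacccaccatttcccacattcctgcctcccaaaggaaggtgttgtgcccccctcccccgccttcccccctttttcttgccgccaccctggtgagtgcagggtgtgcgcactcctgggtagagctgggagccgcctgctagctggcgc
DHRS3, most downstream start: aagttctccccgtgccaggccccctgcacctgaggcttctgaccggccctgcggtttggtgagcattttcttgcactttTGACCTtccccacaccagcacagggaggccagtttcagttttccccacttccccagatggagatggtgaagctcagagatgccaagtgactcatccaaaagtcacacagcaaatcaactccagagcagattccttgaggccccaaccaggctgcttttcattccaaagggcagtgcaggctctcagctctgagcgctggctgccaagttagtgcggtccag
Of 35116 such windows of all genes, 38.6% held at least 1 of the 4 half-sites, as did 6 of the 18 windows of the 9 members that could be matched. A direct repeat of half-sites with a spacer of 1, 2 or 5 bases, the arrangement known for these receptors, was in 0.131%, 0.0399% and 0.0883% of all windows, and in 0 of the members' windows. A match is a description of letters in a window, and which start is used in MOLM13 was not measured.

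DHRS9, a short-chain dehydrogenase that oxidises retinol and 3-hydroxysteroids, lies on chromosome 2 at 169921299 to 169952677 (GRCh37). It had 119, 119 and 137 CPM in CTRL, 97.5, 107 and 98.4 CPM in RBM5 KO, and 68.6, 64.6 and 65.7 CPM in RBM5 OE. The 3 groups did not overlap, with CTRL highest and RBM5 OE lowest. DHRS9 fell in RBM5 OE to 66.3 ± 2.05 CPM from 125 ± 10.2 CPM in CTRL (log2 fold change -0.91, SE 0.0755, adjusted p = 7.45e-06, edgeR). In RBM5 KO the difference had a log2 fold change of -0.31 (SE 0.0891) and did not pass the test (adjusted p = 0.123, edgeR), although in a fit of all 9 libraries it did (adjusted p = 0.0413, edgeR). DHRS9 was also lower in RBM5 OE than in RBM5 KO (log2 fold change -0.61, SE 0.0788, adjusted p = 0.000124, edgeR).

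RDH10, a retinol dehydrogenase on chromosome 8, had 50.1, 49.0 and 41.8 CPM in CTRL, 56.1, 48.9 and 47.3 CPM in RBM5 KO, and 37.9, 34.0 and 34.4 CPM in RBM5 OE. All RBM5 OE libraries were below all others, and CTRL and RBM5 KO overlapped. RDH10 fell in RBM5 OE by 0.40 on the log2 scale (SE 0.0873, adjusted p = 0.00349, edgeR), a call that was lost when log2(TPM + 1) was tested with limma (adjusted p = 0.107). In RBM5 KO its log2 fold change was 0.11 (SE 0.108, adjusted p = 0.664, edgeR). The highly expressed ribosomal protein gene RPL7, at 2933 ± 124 CPM in CTRL, overlaps RDH10 on the other strand, and its adjusted p was 0.265 in RBM5 OE (edgeR).

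RDH11, a retinal reductase on the minus strand of chromosome 14 at 68143517 to 68162510 (GRCh37), had 54.5, 55.8 and 49.8 CPM in CTRL, 58.4, 63.7 and 57.9 CPM in RBM5 KO, and 74.5, 73.5 and 66.9 CPM in RBM5 OE. The groups did not overlap, in the order CTRL, RBM5 KO and RBM5 OE. RDH11 rose in RBM5 OE (log2 fold change 0.43, SE 0.0756, adjusted p = 0.00102, edgeR). In RBM5 KO the log2 fold change was 0.17 (SE 0.0902, adjusted p = 0.389, edgeR). Between RBM5 OE and RBM5 KO it was 0.25 (SE 0.0798, adjusted p = 0.0239), which no longer passed without RBM5 KO replicate 3 (adjusted p = 0.0830), RBM5 OE replicate 1 (adjusted p = 0.0898) or RBM5 OE replicate 2 (adjusted p = 0.0913, all edgeR).

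**Figure D2:**
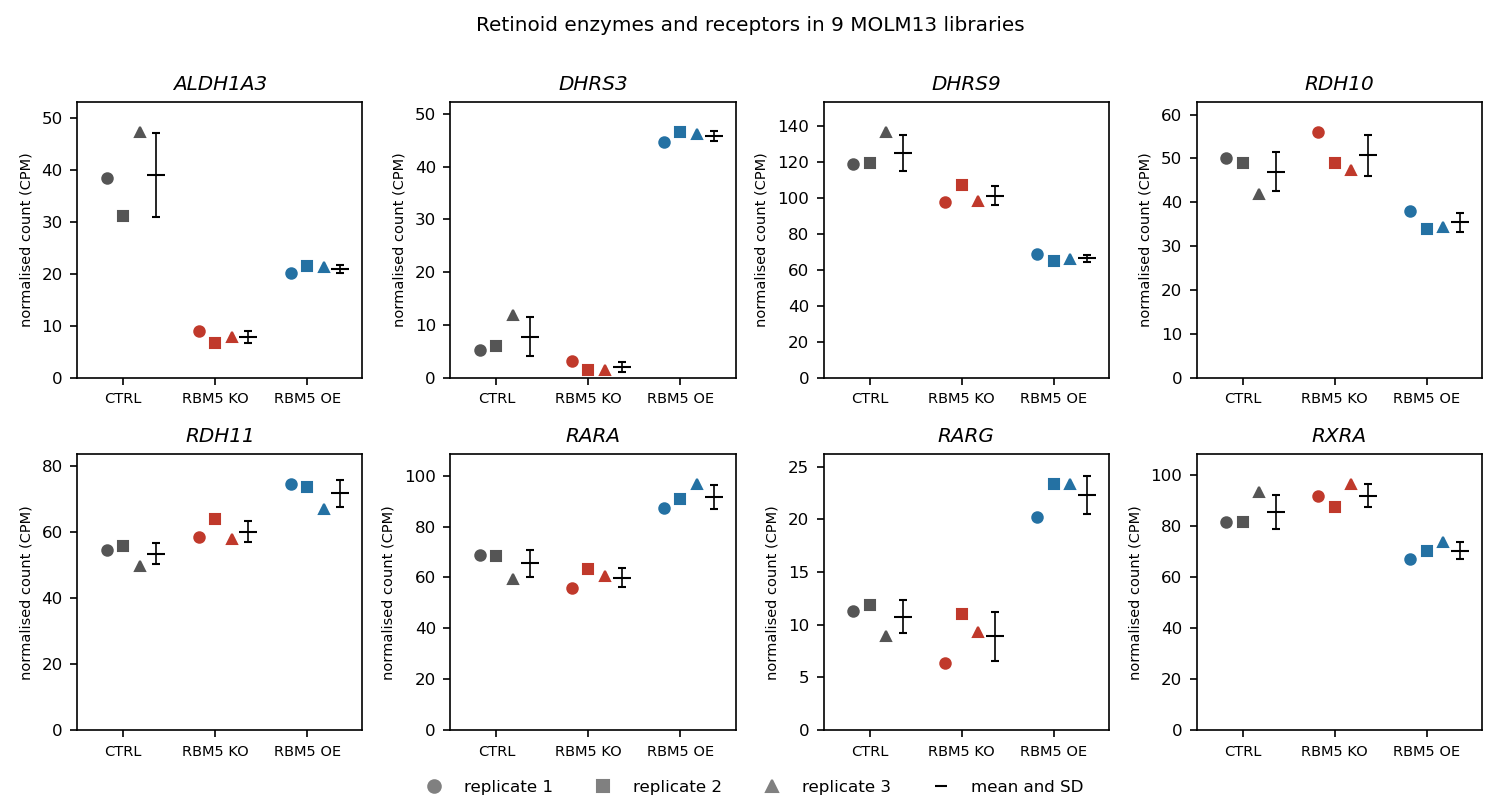
Normalised counts (CPM, linear y axes from 0) of the 8 tested members in the 9 libraries by group, with a symbol per replicate and the mean and SD beside each group. DHRS3 is at 44.7 to 46.6 CPM in RBM5 OE and at most 12.0 CPM elsewhere, ALDH1A3 is highest in CTRL, and RARA and RARG are highest in RBM5 OE.

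Of the receptors, RARA (GRCh37 chromosome 17, 38465432 to 38513895), the retinoic acid receptor that is fused to PML in promyelocytic leukemia, had 68.8, 68.3 and 59.5 CPM in CTRL, 55.9, 63.2 and 60.7 CPM in RBM5 KO, and 87.3, 90.8 and 96.8 CPM in RBM5 OE. All RBM5 OE libraries were above all others, and CTRL and RBM5 KO overlapped. RARA rose in RBM5 OE (log2 fold change 0.49, SE 0.0776, adjusted p = 0.000534, edgeR), and its log2 fold change in RBM5 KO was -0.13 (SE 0.0958, adjusted p = 0.542, edgeR).

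RARG (chromosome 12, 53604351 to 53626764), a retinoic acid receptor known from epithelia and early hematopoietic cells, was less abundant, with 11.3, 11.9 and 8.96 CPM in CTRL, 6.40, 11.0 and 9.28 CPM in RBM5 KO, and 20.2, 23.4 and 23.3 CPM in RBM5 OE. It had the same pattern, with RBM5 OE above all other libraries. RARG rose 2.08-fold in RBM5 OE (log2 fold change 1.06, SE 0.121, adjusted p = 5.98e-05, edgeR) and had a log2 fold change of -0.27 in RBM5 KO (SE 0.206, adjusted p = 0.557, edgeR). Both RARA (log2 fold change 0.61, SE 0.0841, adjusted p = 0.000186) and RARG (1.32, SE 0.179, adjusted p = 0.000163) were higher in RBM5 OE than in RBM5 KO (edgeR). Per transcript length, the summed level of RARA, RARB and RARG was 41.6 to 46.2 TPM in CTRL, 35.1 to 43.0 TPM in RBM5 KO and 62.1 to 71.2 TPM in RBM5 OE. RARA made up 85.3% to 87.1% of this sum in CTRL, 85.7% to 90.6% in RBM5 KO and 78.5% to 81.5% in RBM5 OE, so that the RARG share was larger in every RBM5 OE library than in any CTRL library. RARB had 1 to 8 counts per library.

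RXRA (chromosome 9, 137208944 to 137332431), the common partner of retinoic acid receptors, vitamin D receptor and PPARs, had 81.4, 81.6 and 93.2 CPM in CTRL, 91.8, 87.4 and 96.4 CPM in RBM5 KO, and 67.2, 70.2 and 73.6 CPM in RBM5 OE. The RBM5 OE libraries were the lowest. RXRA fell in RBM5 OE by 0.28 on the log2 scale (SE 0.0771, adjusted p = 0.0136, edgeR), opposite in direction to RARA and RARG. The call did not hold without RBM5 OE replicate 1 (adjusted p = 0.0579) or RBM5 OE replicate 2 (adjusted p = 0.0585, edgeR). In RBM5 KO its log2 fold change was 0.10 (SE 0.0887, adjusted p = 0.603, edgeR), and it was lower in RBM5 OE than in RBM5 KO by 0.39 (SE 0.0797, adjusted p = 0.00251).

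Counts are given over the 6 tested members other than ALDH1A3 and DHRS3. In RBM5 KO against CTRL, 0 of the 6 passed the test (edgeR), where 2.51% of the 14218 genes tested passed in either direction. Of the 6, 1, DHRS9, had an unadjusted p under 0.05. With DESeq2 or limma-voom 0 passed too, and the share over all genes is not given for those fits. In that comparison 2 of the 6, DHRS9 and RDH11, did not overlap between groups, as did 22.9% of all genes, and the median log2 fold change was -0.012 for the 6 members and 0.01 for all genes. In RBM5 OE against CTRL, 3 were higher (RDH11, RARA and RARG) and 3 lower (DHRS9, RDH10 and RXRA), where 40.1% of 14370 genes passed. The groups did not overlap for any of the 6, nor for 51.7% of all genes, and the median log2 fold changes were 0.07 and 0.01. In RBM5 OE against RBM5 KO, 3 were higher and 3 lower, where 40.1% of 14754 genes passed, and the groups did not overlap for any of the 6, nor for 52.6% of all genes. The members were chosen with these contrasts known, so the counts are given beside the background and nothing is read from them.

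**Figure D3:**
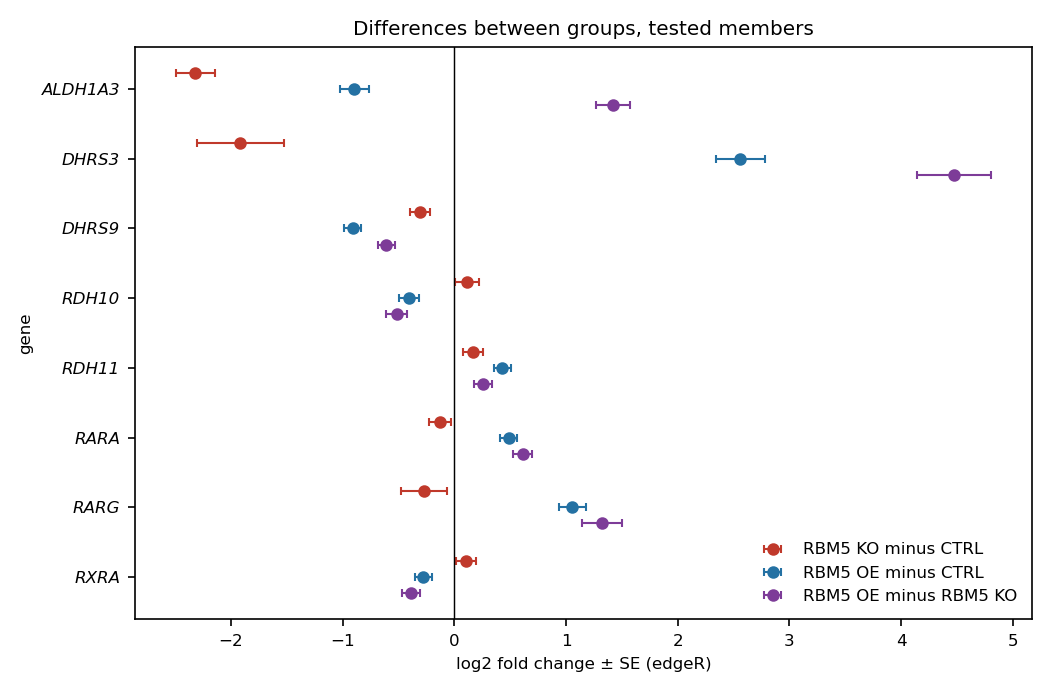
Fitted log2 fold changes (x axis, with the SE of the edgeR fit as bars) of the 8 tested members in RBM5 KO against CTRL (red), RBM5 OE against CTRL (blue) and RBM5 OE against RBM5 KO (purple). DHRS3 lies at -1.91 in RBM5 KO and at 2.56 in RBM5 OE, ALDH1A3 at -2.32 and -0.89, and no other member goes beyond 0.31 in either direction in RBM5 KO.

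Since RBM5 is a splicing factor, the mean transcript length that RSEM assigned to each gene was compared as well, as the ratio of expected count to TPM, relative to its CTRL mean. A gene needed at least 50 expected counts in every library. DHRS3, with 40 and 41 counts in RBM5 KO replicates 2 and 3, was therefore left out. For 7 members with enough reads, it stayed at 97.9% to 103% of CTRL on average in RBM5 KO. The groups of these 7 were not apart there, whereas 9.33% of 10766 genes had groups apart. In RBM5 OE, DHRS9 was the only one of the 7 with groups apart from CTRL, at 98.6% to 99.3% against 99.3% to 101%, and 14.3% of genes had groups apart. Between RBM5 OE and RBM5 KO 12.8% of genes had groups apart, and 0 of the 7 members did. ALDH1A3 ranged from 74.6% to 107% in RBM5 OE and from 84.9% to 113% in CTRL, which overlap. These lengths are averages over estimated isoforms and show no single splice event.

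Beyond the members, 58 other genes of retinoid uptake, metabolism, signalling and response were measured, in lists that were drawn up by role with earlier results of these data known, so that their counts are not independent evidence. Of these, 26 were too low to test in any comparison, and 14 of them had 0 counts in all 9 libraries. The latter include LRAT, which stores retinol as esters, the carriers RBP2 and RBP4, the retinoic acid hydroxylases CYP26B1 and CYP26C1, and RXRG. CYP26A1, the hydroxylase best known as a retinoic acid target, had 1 count in a single library. In RBM5 KO 0 of 31 tested genes were higher and 3 lower, in RBM5 OE 9 of 32 were higher and 6 lower, and between RBM5 OE and RBM5 KO 12 of 32 were higher and 7 lower. The background was 0.837% higher and 1.67% lower in RBM5 KO, 19.8% and 20.2% in RBM5 OE, and 19.5% and 20.6% between the latter and RBM5 KO. The median log2 fold change of these genes was -0.000367 for RBM5 KO, 0.22 for RBM5 OE and 0.16 between them.

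The genes lower in RBM5 KO were all on the list of genes known to be induced by retinoic acid. This list held 10 genes, of which 7 were tested. RARRES1, RARRES2 and RARRES3 were too low to test, with at most 1, 7 and 9 counts in a library. TGM2, the tissue transglutaminase, had 5.26, 5.03 and 4.16 CPM in CTRL, 0.731, 1.44 and 1.29 CPM in RBM5 KO, and 9.44, 9.99 and 10.2 CPM in RBM5 OE. It fell in RBM5 KO (log2 fold change -2.06, SE 0.278, adjusted p = 0.00746) and rose in RBM5 OE (1.04, SE 0.138, adjusted p = 0.000162, edgeR), and the 3 groups did not overlap.

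HIC1, a transcriptional repressor, had 6.32, 6.16 and 10.6 CPM in CTRL, 2.85, 2.51 and 2.94 CPM in RBM5 KO, and 24.2, 21.4 and 27.0 CPM in RBM5 OE. It likewise fell in RBM5 KO (log2 fold change -1.47, SE 0.242, adjusted p = 0.0175) and rose in RBM5 OE (1.65, SE 0.184, adjusted p = 5.22e-05, edgeR). PRAM1, an adaptor protein named for its control by PML-RARA, had 34.3, 32.4 and 38.7 CPM in CTRL, 23.3, 24.2 and 25.3 CPM in RBM5 KO, and 58.6, 55.8 and 65.1 CPM in RBM5 OE. Its log2 fold changes were -0.54 (SE 0.102, adjusted p = 0.0325) and 0.77 (SE 0.0902, adjusted p = 7.16e-05, edgeR), again without overlap of the groups.

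CD38, a surface enzyme that hydrolyses NAD and a receptor-dependent retinoic acid target in myeloid cells, had 50.5, 43.0 and 93.9 CPM in CTRL, 38.4, 18.5 and 20.1 CPM in RBM5 KO, and 131, 128 and 125 CPM in RBM5 OE. As with DHRS3, CTRL replicate 3 and RBM5 KO replicate 1 were the highest of their groups. CD38 rose in RBM5 OE (log2 fold change 1.03, SE 0.217, adjusted p = 0.00286), while in RBM5 KO it had -1.29 (SE 0.337) and did not pass (adjusted p = 0.0893). Without CTRL replicate 3 and RBM5 KO replicate 1 it did pass there (log2 fold change -1.28, adjusted p = 5.51e-09, edgeR), and without RBM5 KO replicate 1 alone too (adjusted p = 0.00669). Leaving out the highest library of each group narrows the spread within groups, so that p-value is not independent of the choice. Of 17 alternative fits of CD38 in RBM5 KO, 13 left it not passing and 4 made it pass.

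ASB2, a ubiquitin ligase subunit found through its induction by retinoic acid, had 4.79, 5.58 and 4.54 CPM in CTRL, 2.96, 6.78 and 7.18 CPM in RBM5 KO, and 30.7, 31.7 and 34.3 CPM in RBM5 OE. It rose 6.49-fold in RBM5 OE (SE 0.108 on the log2 scale, adjusted p = 5.11e-08, edgeR), whereas CTRL and RBM5 KO overlapped (0.18, SE 0.302, adjusted p = 0.813). The granulocytic factor CEBPE had a log2 fold change of 0.83 in RBM5 KO (adjusted p = 0.361) and -0.39 in RBM5 OE (adjusted p = 0.381, edgeR). Thus 0 of the 7 tested genes were higher and 3 lower in RBM5 KO, with a median log2 fold change of -0.54, beside 0.837% and 1.67% of all genes. In RBM5 OE 5 were higher and 0 lower, with a median of 1.03, beside 19.8% and 20.2% of all genes. Between RBM5 OE and RBM5 KO 5 were higher and 1, CEBPE, was lower (log2 fold change -1.22, SE 0.424, adjusted p = 0.0378, edgeR), with a median of 2.32, beside 19.5% higher and 20.6% lower of all genes. The call of CEBPE was lost without CTRL replicate 1 or 2, RBM5 KO replicate 3, or RBM5 OE replicate 2 or 3 (highest adjusted p = 0.220, edgeR).

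The calls in RBM5 KO depended on which libraries were included. Without CTRL replicate 1 or CTRL replicate 2, 0 of the 7 passed, without RBM5 KO replicate 2 or RBM5 KO replicate 3 TGM2 alone did, without CTRL replicate 3 PRAM1 no longer did, and without CTRL replicate 3 and RBM5 KO replicate 1 there were 5, 1 higher and 4 lower. In RBM5 OE, the 5 calls remained 5 in number whichever library was left out. Over the same libraries the myeloid marker LYZ had log2 fold changes of 0.76 in RBM5 KO and -1.29 in RBM5 OE (adjusted p = 0.00524 and 4.30e-07, edgeR), and its part in these results was not tested. LYZ does not stand for all myeloid markers. In RBM5 OE, CD33, FCGR1A and MNDA were also lower, while PTPRC, CD14 and ITGAM were higher.

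**Figure D4:**
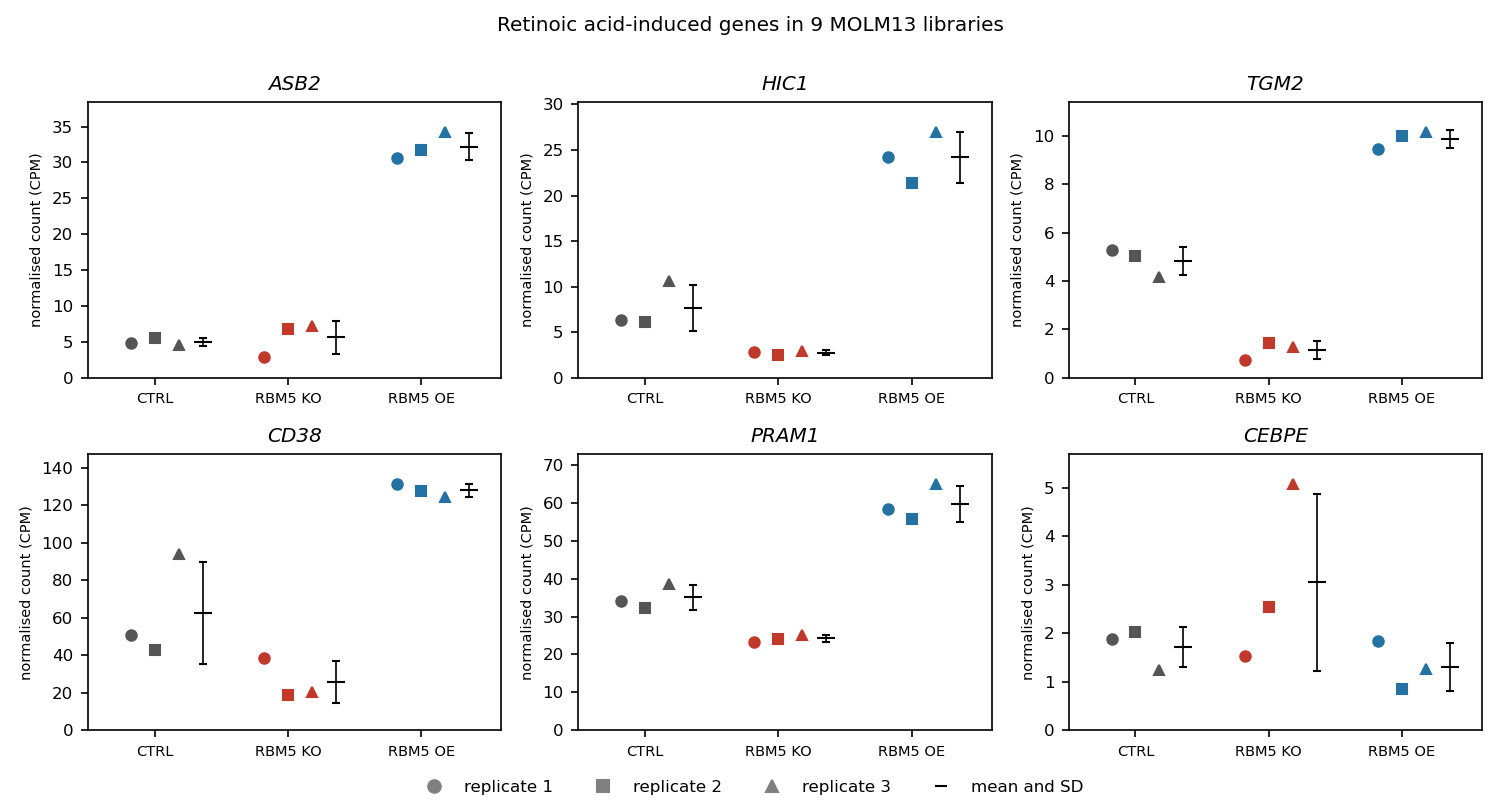
Normalised counts (CPM, linear y axes from 0) of 6 of the 7 tested retinoic acid-induced genes in the 9 libraries by group, with a symbol per replicate and the mean and SD beside each group. ASB2, HIC1, TGM2, CD38 and PRAM1 are highest in all RBM5 OE libraries, HIC1, TGM2, CD38 and PRAM1 are lowest in all RBM5 KO libraries, and CEBPE overlaps between groups.

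Among the other lists, FABP5, a fatty acid binding protein that also carries retinoic acid, fell in RBM5 OE from 202 to 89.2 CPM on average (log2 fold change -1.18, SE 0.0722, adjusted p = 1.33e-06, edgeR), and the further oxidoreductases RDH13 (-0.75, adjusted p = 0.000184) and RDH14 (-0.53, adjusted p = 0.0194) fell too. RXRB, the other retinoid X receptor above background, fell by 0.28 on the log2 scale in RBM5 OE (adjusted p = 0.0158, edgeR), so that both RXR genes were lower while both RAR genes were higher. The receptor coactivator NCOA2 rose in RBM5 OE (log2 fold change 0.67, adjusted p = 4.08e-05, edgeR). Of 9 tested partners of RXR, PPARG (0.80, adjusted p = 0.000218) and NR4A2 (1.06, adjusted p = 0.00204) rose in RBM5 OE and PPARA (-0.87, adjusted p = 0.000797) and THRA (-0.68, adjusted p = 9.26e-05, edgeR) fell. The call of RXRB was lost without RBM5 OE replicate 1 or 2, and the call of RDH14 without CTRL replicate 1 or RBM5 OE replicate 2 or 3 (adjusted p = 0.0510 to 0.0881 over these fits, edgeR). None of the genes in this paragraph passed the test in RBM5 KO against CTRL, where their log2 fold changes ranged from -0.20 (PPARG) to 0.40 (NR4A2).

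Finally, the genes whose log2 CPM over the 9 libraries was most like that of ALDH1A3 and of DHRS3 were listed, among 11629 genes. For ALDH1A3 these were the antisense transcript CTD-2231E14.8 (Pearson r = 0.970), C14orf159 (0.968) and IARS (0.965), a tRNA synthetase gene. IARS averaged 348 CPM in CTRL, 211 CPM in RBM5 KO and 303 CPM in RBM5 OE. For DHRS3 they were MB21D1 (r = 0.997), which encodes the DNA sensor cGAS, RNASEH2B (0.994) and NDFIP1 (0.992), and NDFIP1 averaged 109 CPM in CTRL, 82.2 CPM in RBM5 KO and 160 CPM in RBM5 OE. These coefficients describe 9 libraries that fall into 3 groups, and they carry no test.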

How the data were processed

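RNA-seq of 9 MOLM13 libraries, 3 each of CTRL, RBM5 KO and RBM5 OE, was analysed from gene tables. Per the labels, the authors extracted RNA with TRIzol, depleted ribosomal RNA, used Trim Galore for trimming and STAR 2.7.1a for alignment (submitters' builds hg19 and GRCh37.p13), and marked duplicates with GATK 4.1.2.0 and quantified genes with RSEM without strand. The deposited expected count values are RSEM estimates, not scaled between libraries, and the deposited TPM values are scaled by length and library. Library totals ranged from 25522952 to 27871988 expected counts. The 92 ERCC entries, with 0 counts, were left out.

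Expected counts were rounded to whole numbers and tested with edgeR 4.0.16 in R 4.3.3 (filterByExpr, TMM, quasi-likelihood test, two-sided, Benjamini-Hochberg adjustment over all genes tested). RBM5 KO and RBM5 OE were each fitted with CTRL (6 libraries), and RBM5 OE against RBM5 KO in all 9. A gene passed at an adjusted p under 0.05. CPM values were scaled over all 9 libraries. An SE is the log2 fold change divided by the square root of the F statistic. DESeq2 1.42.0, limma 3.58.1, other scalings and filters, TPM with a pseudocount of 1 or 0.1, a replicate block, and leaving out libraries were tried. The labels call the replicates biological, without naming separate cultures, so p-values measure the spread between these samples. The same replicate number did not pair libraries (Pearson r of deviations -0.242 to 0.0989). Scripts were tested on simulated data.

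The members and gene lists were chosen with earlier results of these data known. Named were all 10 members, RBM5, of the other retinoid genes those passing with the 6 smallest p per comparison or in a count of 5 or fewer, and the 3 genes most like ALDH1A3 and DHRS3 (mean log2 CPM of at least 1). LYZ and the genes at 0 were named after their values were seen. Some listed genes, which the counts over lists include, are not reported here by name. Gene coordinates are from GENCODE on GRCh37, and start windows from RefSeq on GRCh38.p14. PECAM1 was not analysed here.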

Additional observations from a re-analysis of the deposited data

How the results depend on the processing

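Among the 6 tested members other than ALDH1A3 and DHRS3, the 0 calls in RBM5 KO against CTRL (edgeR) became 1, DHRS9, in a fit of all 9 libraries, and stayed 0 with the replicate block and when a library was left out. The 3 calls among other retinoid genes there became 5 in a fit of all 9 libraries, 0 on either TPM scale, 9 without CTRL replicate 3 and RBM5 KO replicate 1, and 0 to 6 when 1 library was left out (0 without CTRL replicate 1 or 2, 6 without RBM5 KO replicate 1, 1 without RBM5 KO replicate 2 or 3). The 3 calls among retinoic acid-induced genes became 0 on either TPM scale, 5 without the same pair and 0 to 4 with 1 library left out. Counts against CTRL in RBM5 OE and against RBM5 KO stayed within 1.5 times, at 5 to 6 members, 12 to 17 and 14 to 20 other genes when 1 library was left out. Log2 fold changes in RBM5 KO turned sign for RDH10 (-0.045 without that pair, 0.03 to 0.16 with 1 library left out) and ASB2 (-0.031 without RBM5 KO replicate 3, up to 0.49 without RBM5 KO replicate 1), neither of which passed the test. The causes were not tested. The replicate numbers did not pair libraries, and the block ended the calls of PRAM1 in RBM5 KO (adjusted p = 0.108) and, between RBM5 OE and RBM5 KO, of CEBPE (0.0774) and DGAT1 (0.0776, all edgeR). In RBM5 OE, RDH10, RXRA, RDH14, RXRB and CD38 did not pass on either TPM scale. Depth limits ALDH1A1 and ALDH1A2, at or near 0 counts.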
